A study of Mus musculus with 12 samples.

Results

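The CC chemokines described here were *Ccl2*, *Ccl3*, *Ccl4*, *Ccl6*, *Ccl7*, *Ccl9* and *Ccl12*, 7 of the 53379 genes in a table of raw read counts from mouse bone marrow-derived macrophages (BMDMs). They were chosen by symbol and matched to Ensembl identifiers with the GENCODE M21 annotation, and all 7 passed the filter on low counts that left 12386 genes to test. BMDMs are primary macrophages, grown in this study from the bone marrow of 4 mice in medium conditioned by L929 cells. According to the methods, the mice were adult males on a C57Bl/6J background, with no engineered allele named for these 12 libraries. The BMDMs of each mouse stayed untreated or received 1 μM fenoterol, for either 1 h or 4 h before lysis, which gave 3 groups of 4 libraries. Fenoterol is an agonist of the beta2-adrenergic receptor (B2AR), and it was added without a change of medium. All groups therefore shared the conditioned medium, and no library came from cells given another stimulus. The comparisons address how fast and in which direction RNA of the CC chemokines changed when B2AR was stimulated.

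CC chemokines are small secreted proteins with adjacent cysteines near the amino terminus, and they draw leukocytes along a gradient by binding G protein-coupled receptors of the CCR family. CCL3 and CCL4 are also called MIP-1α and MIP-1β, and CCL3 binds CCR1. CCL2, CCL7 and CCL12 are monocyte chemoattractants that bind CCR2, whereas CCL6 and CCL9 bind CCR1 and are made by resting myeloid cells of rodents. In macrophages, signals such as bacterial lipopolysaccharide raise transcription of *Ccl2*, *Ccl3* and *Ccl4* through NF-kB, and cAMP, the second messenger of B2AR, is known to restrain part of that programme.

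All 7 genes lie on chromosome 11 (GRCm38, GENCODE M21) in a pair of clusters 1470 kb apart. The first, of 67.8 kb, holds *Ccl2* (ENSMUSG00000035385, chr11:82035571-82037453, plus strand), *Ccl7* (ENSMUSG00000035373, chr11:82045712-82047525, plus strand) and *Ccl12* (ENSMUSG00000035352, chr11:82101845-82103400, plus strand). The second, of 91.8 kb, holds *Ccl9* (ENSMUSG00000019122, chr11:83572919-83578636, minus strand), *Ccl6* (ENSMUSG00000018927, chr11:83587882-83593087, minus strand), *Ccl3* (ENSMUSG00000000982, chr11:83647844-83649355, minus strand) and *Ccl4* (ENSMUSG00000018930, chr11:83662584-83664683, plus strand). The values are counts over the exons of each gene. No exon of a member overlapped an exon of another annotated gene on either strand. *Ccl11*, which encodes eotaxin and lies between *Ccl7* and *Ccl12*, had 0 counts in all 12 libraries.

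Paralogs of this family can share reads, so their sequences were compared. The coding sequences of *Ccl6* and *Ccl9* were 71.6% identical over 341 aligned bases and shared a longest exact run of 23 bases, and those of *Ccl3* and *Ccl4* were 70.0% identical over 273 aligned bases with a longest run of 9 bases. These runs are shorter than the reads of 50 bases. No stretch of 50 bases in a transcript of *Ccl2*, *Ccl3*, *Ccl4*, *Ccl6*, *Ccl7* or *Ccl12* occurred in a transcript of another gene, and 59 of 2996 did for *Ccl9*.

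Promoter sequence from RefSeq (GRCm38.p6) was at hand for 4 of the 7 members. The 250 bases before the RefSeq start of each are shown because *Ccl6* and *Ccl9* rose together whereas *Ccl3* and *Ccl12* fell. For *Ccl3* the RefSeq start lies upstream of the GENCODE start given above, so the *Ccl3* window does not reach the GENCODE start. In *Ccl6* and *Ccl9* the capitals mark the identical bases of their best local alignment. In *Ccl3* they mark a match to the PU.1 core GAGGAA on the opposite strand, and in *Ccl12* a match to GAGGAA and a match to the TATA box TATAAA.
Ccl6, chr11:83593088-83593337, minus strand: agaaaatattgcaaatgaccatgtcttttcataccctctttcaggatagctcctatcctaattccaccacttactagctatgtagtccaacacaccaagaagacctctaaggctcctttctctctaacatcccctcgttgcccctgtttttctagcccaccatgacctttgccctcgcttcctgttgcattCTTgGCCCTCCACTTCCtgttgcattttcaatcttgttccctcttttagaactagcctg
Ccl9, chr11:83578637-83578886, minus strand: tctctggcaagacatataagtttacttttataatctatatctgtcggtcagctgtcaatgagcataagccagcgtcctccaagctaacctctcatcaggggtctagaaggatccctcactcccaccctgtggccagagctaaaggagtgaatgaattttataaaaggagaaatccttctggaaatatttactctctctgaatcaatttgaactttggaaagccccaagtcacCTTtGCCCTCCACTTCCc
Ccl3, chr11:83649379-83649628, minus strand: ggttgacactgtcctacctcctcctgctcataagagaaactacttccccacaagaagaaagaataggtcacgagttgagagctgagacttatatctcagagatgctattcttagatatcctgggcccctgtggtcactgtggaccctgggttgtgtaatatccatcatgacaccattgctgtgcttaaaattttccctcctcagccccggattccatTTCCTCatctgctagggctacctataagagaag
Ccl12, chr11:82101595-82101844, plus strand: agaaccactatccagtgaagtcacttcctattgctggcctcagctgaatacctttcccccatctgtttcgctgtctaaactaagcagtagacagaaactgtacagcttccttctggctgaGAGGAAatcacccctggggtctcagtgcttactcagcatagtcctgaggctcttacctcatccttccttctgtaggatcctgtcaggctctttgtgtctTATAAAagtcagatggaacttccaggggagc
The aligned block of *Ccl6* and *Ccl9* held 16 identical bases of 17. Pairs that did not move together also had short blocks, such as 12 identical bases of 13 for *Ccl12* and *Ccl6* and 39 of 52 for *Ccl3* and *Ccl6*, so such a block was not shown to be particular to *Ccl6* and *Ccl9*. It began 59 bases before the start of *Ccl6* and 18 bases before that of *Ccl9*. Both strands of the promoters, including the 50 bases after the start, were searched for short motifs. The CRE half-site TGACG, which CREB binds, had no match in any of the 4 promoters, nor had the full CRE TGACGTCA, which contains that half-site, whereas 21.02% and 1.88% of 27025 promoters held them. The AP-1 site TGAGTCA had no match in the 4 either and occurred in 5.17% of promoters. GAGGAA occurred in 28.3% of promoters, with matches in *Ccl3* and *Ccl12*. TATAAA occurred in 14.2% and matched *Ccl9* and, 31 bases before the start, *Ccl12*. The NF-kB consensus occurred in 8.18% of promoters, and only *Ccl9* of these 4 held a match. A match of letters is a description of these windows and says nothing of binding in these cells.

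The libraries held 14580533 to 24153284 counts, with medians per group between 18975206 and 19843792. All 8 macrophage markers were detected in every library, with summed normalized counts of 631478 to 786541. The neutrophil marker *Ly6g* had at most 1 count in any library. Of the other neutrophil markers, *S100a9* had the most, with 218 to 508 counts in untreated libraries. Summed neutrophil markers ranged from 342 to 676 in untreated BMDMs and from 356 to 610 after 4 h, and no neutrophil or fibroblast marker passed the test in any comparison. With the mouse as a block the fibroblast marker *Col1a1* did, between 4 h and 1 h (-0.42, edgeR adjusted p = 0.0454). The highest sum outside the macrophage list, 1331 in an untreated library, belonged to fibroblast or stromal cell markers. Their lowest untreated sum was 432, and all treated libraries held sums between 490 and 1270. Summed dendritic cell, mast cell and T or NK cell markers reached at most 25.8, 19.5 and 4.82, and B cell markers 229, nearly all from *Cd79b*. Of the markers of these other cell types, *Kit* alone was called, lower at 4 h than at 1 h (log2 difference -1.59, edgeR adjusted p = 0.0464), and the call was lost with limma-voom (adjusted p = 0.0881) and without any one of several libraries. Of the macrophage markers, 3 were higher and 4 lower at 4 h than untreated, beside 40.0% of all genes called, with *Mertk* at -1.51 on the log2 scale (edgeR adjusted p = 5.13e-11). The part of such cells in the results was not tested. In bulk RNA, fewer cells that express a gene and less RNA of it per cell cannot be told apart. Normalized counts in the text are counts scaled to a common library size by the TMM method. The test was the two-sided quasi-likelihood test of edgeR with Benjamini-Hochberg adjustment over the 12386 genes, and a gene was called at an adjusted p under 0.05.

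Stimulation of B2AR changed the CC chemokines in opposite directions. *Ccl3* and *Ccl4* fell within 1 h and stayed low at 4 h, *Ccl6* and *Ccl9* rose mainly between 1 h and 4 h, *Ccl2* was higher at 4 h, and *Ccl12*, at low counts, was lower at 4 h. At 1 h, 3 of 7 members were called, 1 higher and 2 lower. Over all genes tested at 1 h, 20.1% were called, 10.0% higher and 10.1% lower. At 4 h, 6 of 7 members were called, 3 higher and 3 lower, where 40.0% of all genes were called, 19.7% higher and 20.4% lower. Between 4 h and 1 h, 5 of 7 members were called, 4 higher at 4 h and 1 lower, where 38.5% of all genes were called, 18.7% higher and 19.8% lower. The median log2 fold change of the members was 0.03 at 1 h and 0.89 at 4 h, against medians of -0.0049 and 0.0042 over all genes. Both comparisons with untreated cells used the same 4 untreated libraries.

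**Figure D1:**
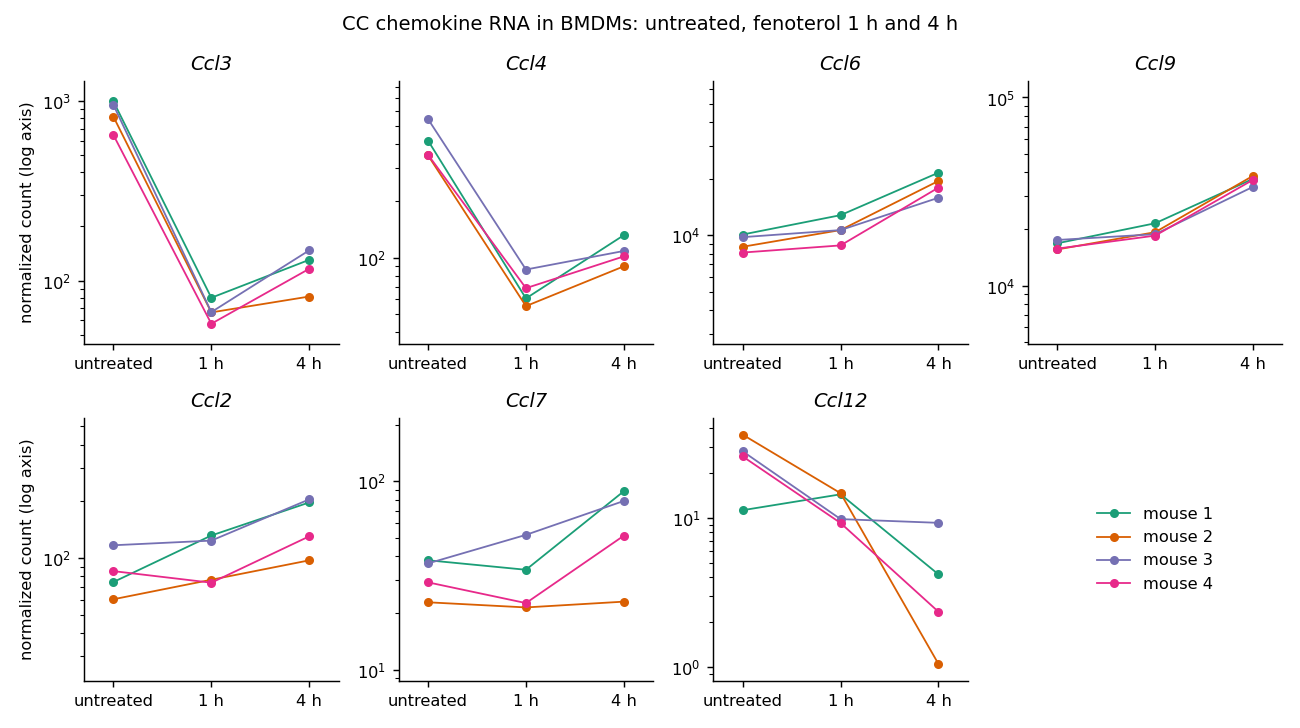
Normalized counts of the 7 CC chemokines on log axes, whose span differs between panels, in untreated BMDMs and after 1 h and 4 h of fenoterol; each line joins the 3 libraries of a mouse. *Ccl3* and *Ccl4* dropped in all 4 mice at 1 h, *Ccl6* and *Ccl9* were highest at 4 h in all 4, and *Ccl12* was lower at 4 h than untreated in all 4.

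*Ccl3*, which encodes the CCR1 ligand MIP-1α, showed the largest fitted change of the 7 genes at 1 h. Untreated BMDMs of mice 1 to 4 had normalized counts of 992, 816, 949 and 645. After 1 h of fenoterol the counts were 80.2, 66.5, 66.7 and 57.4, and after 4 h they were 130, 81.4, 147 and 116. Every treated library lay far below every untreated library, and every 4 h library lay above every 1 h library. The log2 fold change was -3.65 at 1 h (SE 0.18, edgeR adjusted p = 1.51e-09), which is a 12.6-fold lower level. At 4 h it was -2.84 (SE 0.17, edgeR adjusted p = 7.57e-09), or 7.15-fold lower. As a share of the untreated level of the same mouse, *Ccl3* was at 8.04% ± 0.772 (SD, n = 4) at 1 h and 14.2% ± 3.42 (SD, n = 4) at 4 h. The partial recovery between the time points, 0.81 on the log2 scale (SE 0.19, edgeR adjusted p = 0.00388), was seen in 4 of 4 mice.

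*Ccl4* encodes MIP-1β, a chemoattractant for T cells and monocytes, and lies next to *Ccl3* on the other strand. Its normalized counts were 417, 348, 543 and 351 in untreated BMDMs of mice 1 to 4. They were 60.6, 55.2, 86.3 and 68.7 at 1 h, and 131, 89.8, 108 and 101 at 4 h. The 3 groups did not overlap, and the order untreated, 4 h, 1 h was the same as for *Ccl3*. The log2 fold change was -2.61 at 1 h (SE 0.18, edgeR adjusted p = 5.78e-08), or 6.11-fold lower. At 4 h it was -1.95 (SE 0.17, edgeR adjusted p = 4.34e-07), or 3.86-fold lower. *Ccl4* stood at 16.5% ± 2.17 (SD, n = 4) of the untreated level at 1 h and at 26.5% ± 4.97 (SD, n = 4) at 4 h. The rise between 1 h and 4 h was 0.66 on the log2 scale (SE 0.19, edgeR adjusted p = 0.0118), and it missed the threshold with limma-voom (adjusted p = 0.0503).

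*Ccl9* and *Ccl6*, ligands of CCR1 in rodents, were the most abundant of the family and went the other way. *Ccl9* had normalized counts of 16804, 15583, 17499 and 15746 in untreated BMDMs of mice 1 to 4. It had 21471, 19253, 18778 and 18458 at 1 h and 36981, 38369, 33535 and 36535 at 4 h. No library of one group overlapped another group, and the spread between mice was narrow. At 1 h the log2 fold change was 0.25 (SE 0.063, edgeR adjusted p = 0.0113), a level 1.19-fold higher in 4 of 4 mice. At 4 h it was 1.15 (SE 0.064, edgeR adjusted p = 3.32e-09), or 2.22-fold higher. Most of this rise fell between 1 h and 4 h, where the log2 difference was 0.90 (SE 0.063, edgeR adjusted p = 6.50e-08).

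*Ccl6* had normalized counts of 10101, 8695, 9779 and 8100 in untreated BMDMs of mice 1 to 4. The counts were 12799, 10666, 10663 and 8842 at 1 h, and 21517, 19450, 15837 and 17925 at 4 h. The 1 h libraries overlapped the untreated ones, and the 4 h libraries lay above both groups. *Ccl6* was not called at 1 h, where its log2 fold change was 0.23 (SE 0.11, edgeR adjusted p = 0.191). With the mouse as a block the value was 0.22 and was called (edgeR adjusted p = 0.0206), and all 4 mice had more *Ccl6* RNA at 1 h than untreated. At 4 h *Ccl6* was 2.04-fold higher, a log2 fold change of 1.03 (SE 0.11, edgeR adjusted p = 4.39e-06). The difference between 4 h and 1 h was 0.80 (SE 0.11, edgeR adjusted p = 6.55e-05). At 4 h, *Ccl6* was at 205% ± 29.1 (SD, n = 4) and *Ccl9* at 222% ± 23.2 (SD, n = 4) of the untreated level of the same mouse.

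*Ccl2* encodes MCP-1, the main CCR2 ligand that brings monocytes into tissue. In untreated BMDMs its normalized counts were low, at 74.5, 60.3, 117 and 85.1 in mice 1 to 4. They were 132, 76.6, 124 and 73.9 at 1 h and 197, 97.1, 205 and 130 at 4 h. The groups overlapped at both times, although each mouse had its highest *Ccl2* value at 4 h. The log2 fold change was 0.26 at 1 h (SE 0.28, edgeR adjusted p = 0.591) and was not called. At 4 h it was 0.89 (SE 0.27, edgeR adjusted p = 0.0168), or 1.86-fold higher. The call at 4 h was lost without untreated replicate 2 (edgeR adjusted p = 0.0516), 4 h replicate 1 (0.0525) or 4 h replicate 3 (0.0586). Between 4 h and 1 h the log2 difference of 0.63 was not called (edgeR adjusted p = 0.0782), but it was with the mouse as a block (0.62, edgeR adjusted p = 0.00211).

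*Ccl7*, which encodes MCP-3, had the second lowest counts of the 7 genes. Its normalized counts were 38.1, 22.8, 36.7 and 29.1 in untreated BMDMs of mice 1 to 4, 33.9, 21.4, 52.0 and 22.6 at 1 h, and 88.7, 23.0, 78.7 and 51.5 at 4 h. Mouse 2 kept a similar value in all 3 groups, whereas the other mice were highest at 4 h. At 1 h the log2 fold change was 0.03 (SE 0.39, edgeR adjusted p = 0.980), and its sign turned with the scaling and with the libraries used. At 4 h the value was 0.91 (SE 0.37) and missed the threshold (edgeR adjusted p = 0.0665). It was called with the mouse as a block (0.90, edgeR adjusted p = 0.00267), without 4 h replicate 2 (1.18, edgeR adjusted p = 0.00817), with DESeq2 (adjusted p = 0.0419) and with no filter on low counts (edgeR adjusted p = 0.0349). The difference between 4 h and 1 h, 0.89, was likewise called only with some settings, and with the block it was 0.87 (edgeR adjusted p = 0.00356).

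*Ccl12* encodes MCP-5, a CCR2 ligand of mice. It was counted with 1 to 29 reads a library, so each value carries a large counting error. The raw counts were 13, 27, 29 and 24 in untreated BMDMs of mice 1 to 4, 14, 13, 10 and 9 at 1 h, and 4, 1, 10 and 3 at 4 h. As normalized counts these were 11.3, 36.2, 27.98 and 25.8 untreated, 14.4, 14.6, 9.81 and 9.23 at 1 h, and 4.17, 1.04, 9.26 and 2.34 at 4 h. The 4 h values lay below all untreated values, and the 1 h values overlapped both groups with mouse 1 low when untreated and mouse 3 high at 4 h. The log2 fold change at 4 h was -2.52 (SE 0.49, edgeR adjusted p = 0.000824), or 5.75-fold lower, and without 4 h replicate 3 it was -3.25 (edgeR adjusted p = 0.000268). At 1 h it was -1.04 (SE 0.43, edgeR adjusted p = 0.109), and -1.31 without untreated replicate 1 (edgeR adjusted p = 0.0409). The difference between 4 h and 1 h was -1.48 (SE 0.53, edgeR adjusted p = 0.0413). Without 4 h replicate 3 it was -2.20 (edgeR adjusted p = 0.00832). That call was lost without any one of 1 h replicates 1, 2 and 3, of 4 h replicates 1, 2 and 4, or of untreated replicate 4 (edgeR adjusted p = 0.0508 to 0.112).

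**Figure D2:**
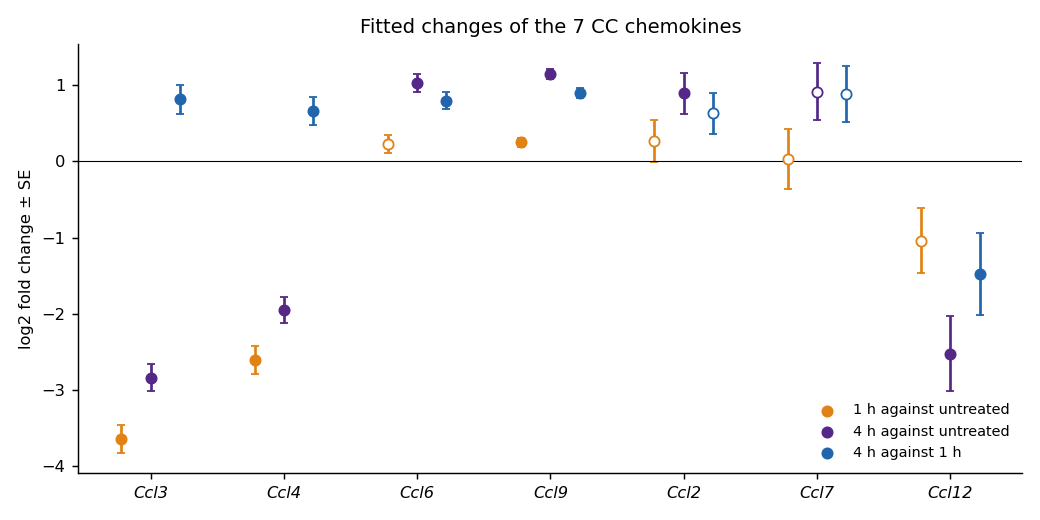
Log2 fold changes (points) and their standard errors (bars) for the 7 CC chemokines in 3 comparisons; filled points had an adjusted p under 0.05 (edgeR). *Ccl3* and *Ccl4* were lowest at 1 h (-3.65 and -2.61), *Ccl6* and *Ccl9* were above 1 at 4 h, and the bars of *Ccl7* and *Ccl12* were the widest.

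Neighbours on chromosome 11 did not move as a block. In the cluster of 91.8 kb, *Ccl3* and *Ccl4* were lower and *Ccl6* and *Ccl9* higher at 4 h, and in the cluster of 67.8 kb *Ccl2* was higher and *Ccl12* lower. The responses of paralogs were set against each other within each mouse, as the difference of their log2 changes of normalized counts with 0.5 added. In 12 such tests with 4 mice, an exact two-sided sign-flip permutation test cannot give a p below 0.125. *Ccl3* fell further than *Ccl4* in 4 of 4 mice at 1 h, by a mean difference of -1.03 ± 0.15 (SD, n = 4, exact p = 0.125, adjusted p = 0.25). At 4 h the difference was -0.92 ± 0.48 (SD, n = 4, exact p = 0.125, adjusted p = 0.25), ranging from -1.37 to -0.36. Between 1 h and 4 h, *Ccl3* and *Ccl4* recovered by values that differed by 0.11 ± 0.62 (SD, n = 4, exact p = 0.75), with no common sign. *Ccl2* stood above *Ccl12* in its change by 1.22 ± 0.52 at 1 h and by 3.54 ± 1.302 at 4 h (SD, n = 4 mice, exact p = 0.125 for each, adjusted p = 0.25).

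*Ccl6* and *Ccl9* had log2 changes of similar size. These differed by -0.026 ± 0.054 at 1 h (SD, n = 4, exact p = 0.625), and the 4 mice ranged from -0.10 to 0.023. At 4 h the difference was -0.12 ± 0.088 (SD, n = 4, exact p = 0.125, adjusted p = 0.25), with a smaller rise of *Ccl6* in 4 of 4 mice. *Ccl2* and *Ccl7* differed by 0.29 ± 0.58 at 1 h and 0.094 ± 0.44 at 4 h (SD, n = 4, exact p = 0.375 and 0.875), and their wide range between mice leaves a difference of either sign possible.

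**Figure D3:**
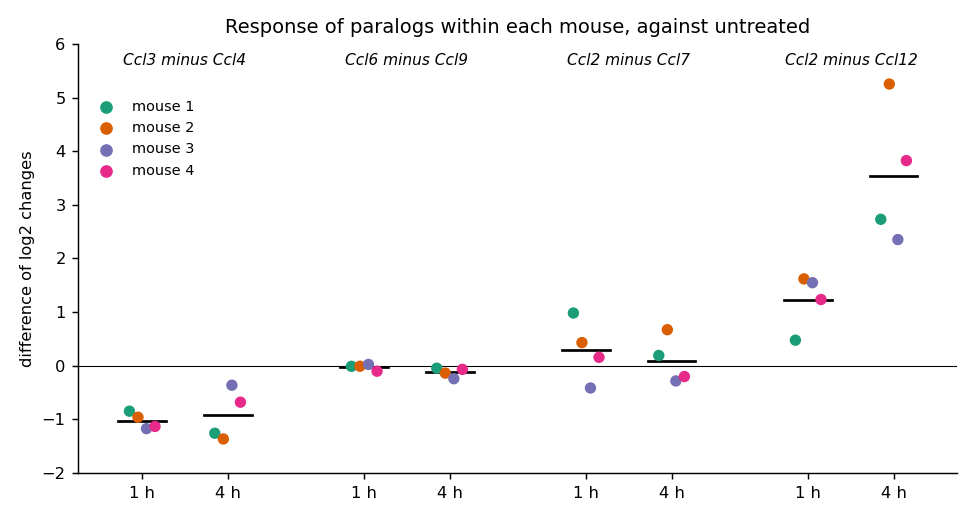
Difference of the log2 changes of 2 paralogs within each mouse (coloured points) and their mean (black line), at 1 h and 4 h against untreated BMDMs. All 4 mice lay below 0 for *Ccl3* minus *Ccl4* and above 0 for *Ccl2* minus *Ccl12*, and *Ccl6* minus *Ccl9* stayed close to 0.

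To order the genes by abundance, levels were expressed per kb of annotated exon and per 1000000 counts. In untreated BMDMs the order was *Ccl9* (274), *Ccl6* (260), *Ccl3* (56.6), *Ccl4* (32.02), *Ccl2* (3.77), *Ccl12* (2.40) and *Ccl7* (2.01). The ranges of *Ccl9* and *Ccl6* overlapped, as did those of *Ccl2* and *Ccl12* and of *Ccl12* and *Ccl7*, and the other neighbours were apart. After 1 h the order below *Ccl9* (326) and *Ccl6* (305) became *Ccl4* (5.22), *Ccl2* (4.54), *Ccl3* (4.50), *Ccl7* (2.06) and *Ccl12* (1.14), with *Ccl4*, *Ccl2* and *Ccl3* overlapping from neighbour to neighbour. After 4 h *Ccl9* was at 608 and *Ccl6* at 530, followed by *Ccl4* (8.31), *Ccl3* (7.90), *Ccl2* (7.04), *Ccl7* (3.84) and *Ccl12* (0.399). *Ccl3*, whose untreated range lay well above that of *Ccl2*, overlapped the range of *Ccl2* at both times of treatment. *Ccl3* and *Ccl4* made up 8.91% ± 0.984 and 5.04% ± 0.728 (SD, n = 4) of the summed level of the 7 genes in untreated BMDMs and 0.687% ± 0.201 and 0.715% ± 0.111 after 4 h. *Ccl6* and *Ccl9* took 41.2% ± 1.07 and 43.6% ± 1.86 untreated and 45.3% ± 2.24 and 52.3% ± 2.22 after 4 h. The order of *Ccl9* and *Ccl6* depended on the length used, since levels divided by the longest coding transcript gave untreated shares of 39.8% for *Ccl9* and 46.3% for *Ccl6*.

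**Figure D4:**
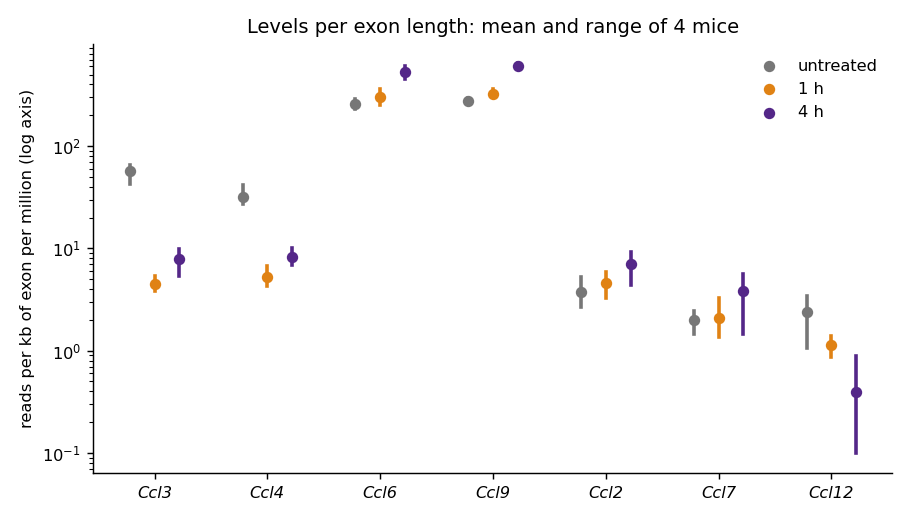
Level of each CC chemokine in counts per kb of exon per 1000000 counts on a log axis; points are means and bars the range of 4 mice, in untreated BMDMs and after 1 h and 4 h of fenoterol. *Ccl6* and *Ccl9* were the highest in every group, whereas *Ccl3* and *Ccl4* dropped to levels that overlapped those of *Ccl2*.

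The genes whose pattern was most like that of each member were ranked by Pearson's r of log2 values over the 12 libraries, among tested genes whose mean normalized count reached 50. These coefficients describe likeness only, since the libraries fall into 3 groups, and no test was made. For *Ccl3* the nearest were *Rnf19a* (r of 0.987), *Kcnj2*, a potassium channel gene (0.984), and *Tmem140* (0.982). Of these, *Kcnj2* had changes of the same size as *Ccl3*, at -3.71 (1 h) and -2.96 (4 h) on the log2 scale, whereas *Rnf19a* was at -0.53 and -0.43. For *Ccl4* they were *Tmem140* (0.990), *Rap2b* (0.988) and *Mylip* (0.982), which fell by 1.10, 1.19 and 1.46 on the log2 scale at 1 h. For *Ccl9* they were *Tnfrsf23* (0.993), *Spag9* (0.992) and *Clec4d* (0.991), a myeloid C-type lectin gene, and *Sh3bgrl2* (0.975) and *Esd* (0.974) were among those nearest to *Ccl6*. The likeness was lower for the genes with few counts. *Cep83* (0.937), *Rangap1* (0.927) and *Mrpl42* (0.920) were nearest to *Ccl2*, *Hyal1* (0.970), *Fanca* (0.952) and *Tedc1* (0.936) to *Ccl7*, and *Eef2kmt* (0.955), *Inka1* (0.941) and *Nob1* (0.936) to *Ccl12*.

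Of 17 other CC chemokines listed, 16 were in the table and 5 were expressed enough to be tested. At 1 h, 0 of the 5 were called, beside 20.1% of all genes. At 4 h 2 of the 5 were called, both higher, a share equal to the 40.0% of all genes called. *Ccl5*, which encodes the CCR1 ligand RANTES, was 1.32 higher at 4 h on the log2 scale (SE 0.38, edgeR adjusted p = 0.0116), with normalized counts of 79.7 to 141 in untreated BMDMs and an overlapping 115 to 435 at 4 h. *Ccl25* was 0.76 higher (SE 0.17, edgeR adjusted p = 0.00214), at 43.3 to 53.6 untreated and 75.2 to 93.6 at 4 h. *Ccl8* varied more between mice than between groups, from 50.6 to 298 in untreated BMDMs. *Ccl17*, *Ccl19*, *Ccl20* and *Ccl11* had 0 counts in all libraries, and *Ccl22* had at most 4.

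The receptors for these ligands are made by macrophages too, and 5 of 15 listed receptor and atypical receptor genes were tested. At 1 h 1 was higher and 1 was lower, beside 20.1% of all genes called, and at 4 h 2 were higher and 3 lower, beside 40.0% of all genes. With no filter on low counts 4 were called at 1 h, beside 2247 of 23560 genes in that fit. *Ccr1* and *Ackr3* were added, the latter from at most 13 counts in any library, and the other alternatives called 2 or 3. *Ccr2*, the receptor for CCL2, CCL7 and CCL12, was 0.61 lower at 1 h (SE 0.10, edgeR adjusted p = 0.000550) and 1.20 lower at 4 h (SE 0.11, edgeR adjusted p = 4.03e-07). Its normalized counts went from 1976 to 2421 in untreated BMDMs to 836 to 1046 at 4 h, without overlap. *Ccr1*, the receptor for CCL6 and CCL9, had a log2 fold change of -0.58 at 1 h, which did not pass (edgeR adjusted p = 0.0755) but was called with the mouse as a block (-0.57, edgeR adjusted p = 0.000233). At 4 h *Ccr1* was called higher, by 0.64 on the log2 scale (SE 0.21, edgeR adjusted p = 0.0237). That call was lost without untreated replicate 2 (edgeR adjusted p = 0.0714), untreated replicate 4 (0.0578) or 4 h replicate 1 (0.0895). *Ccrl2*, an atypical receptor that binds chemerin, rose by 2.99 at 1 h (SE 0.11, edgeR adjusted p = 7.10e-11) and was still 0.57 higher at 4 h (SE 0.11, edgeR adjusted p = 0.000811). *Ccr3* and *Ccr1l1* were lower at 4 h, by log2 fold changes of -1.41 and -2.09 (edgeR adjusted p = 0.00290 and 0.00139), the latter from at most 30 counts in any library.

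All 12 listed NF-kB subunits and inhibitors were tested. At 1 h 5 were higher and 3 lower, beside 20.1% of all genes called, and at 4 h 4 were higher and 5 lower, beside 40.0%. *Nfkbie* and *Tnfaip3*, which encode inhibitors of NF-kB, were 1.67 and 0.99 higher at 1 h on the log2 scale (edgeR adjusted p = 3.91e-10 and 1.31e-06), and *Tnfaip3* was 0.83 lower than untreated at 4 h (log2 fold change -0.83, edgeR adjusted p = 5.59e-06). *Rel* and *Nfkb2*, which encode NF-kB subunits, and *Bcl3*, a cofactor gene, were 0.86, 0.50 and 0.99 higher at 1 h (edgeR adjusted p = 1.51e-06, 0.000272 and 9.11e-07). The 3 lower genes at 1 h were *Nfkbia*, the gene of the inhibitor IκBα, *Nfkbiz*, of the IκB family, and *Tnip1*, whose product binds that of *Tnfaip3*. *Nfkbiz* was at -0.92, *Tnip1* at -0.54 and *Nfkbia* at -0.27 on the log2 scale (edgeR adjusted p = 5.43e-05, 7.05e-05 and 0.0267). The call of *Nfkbia* at 1 h was lost without any one of untreated replicates 2 and 4 and 1 h replicates 1, 2 and 3 (edgeR adjusted p = 0.0729 to 0.0888). At 4 h *Nfkbiz*, *Nfkbia*, *Tnip1* and *Nfkb1* were lower, at -0.999, -0.54, -0.34 and -0.24 (edgeR adjusted p = 1.14e-05, 7.68e-05, 0.00159 and 0.00529). *Nfkbie*, *Bcl3* and *Nfkb2* were then higher, by 0.48, 0.47 and 0.27 (edgeR adjusted p = 8.93e-05, 0.000544 and 0.0134), the last not without untreated replicate 3 (edgeR adjusted p = 0.0576). Of 7 genes for proteins that set mRNA decay, 2 were higher and 1 was lower at 1 h, beside the same 20.1%. *Zfp36*, whose product tristetraprolin binds AU-rich elements, was 1.45 higher at 1 h and 0.34 higher at 4 h (edgeR adjusted p = 2.26e-08 and 0.00805). *Zc3h12a*, which encodes the RNase Regnase-1, was 1.499 and 0.49 higher (edgeR adjusted p = 2.26e-10 and 1.97e-05), and *Zfp36l1* was lower at 1 h, its log2 fold change being -0.91 (edgeR adjusted p = 0.00114). No part of these genes in the change of any CC chemokine was tested.

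**Figure D5:**
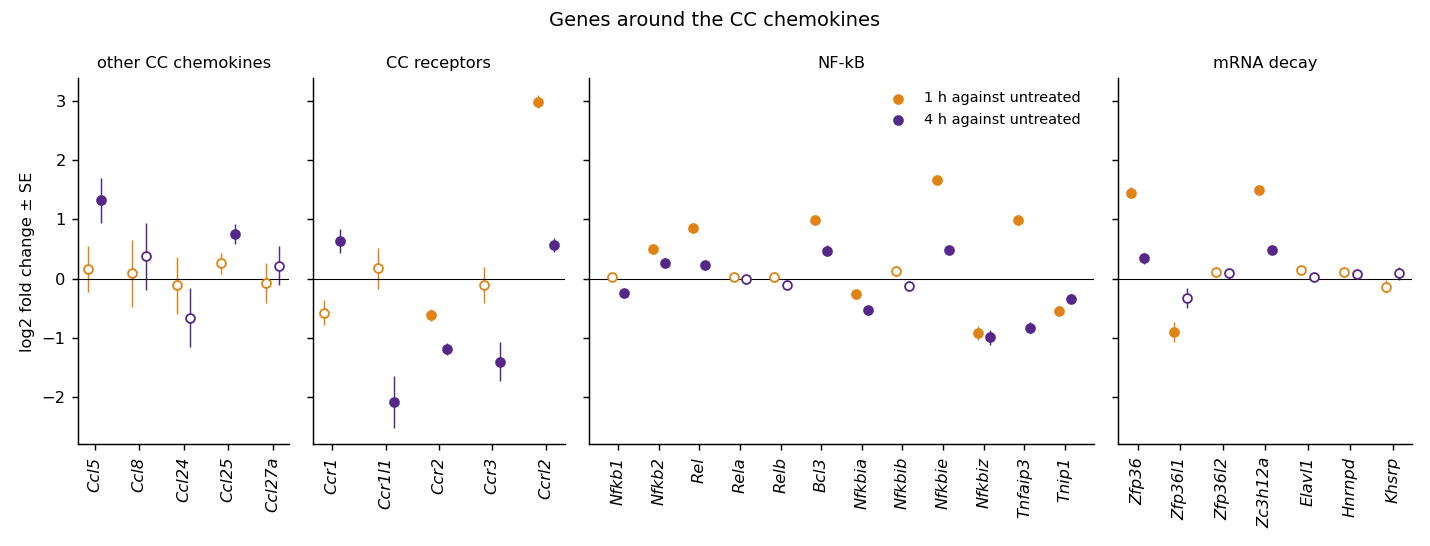
Log2 fold changes with standard errors at 1 h and 4 h against untreated BMDMs for the tested genes of 4 lists, the other CC chemokines, the CC receptors, NF-kB subunits and inhibitors, and proteins that set mRNA decay; filled points had an adjusted p under 0.05 (edgeR). *Ccrl2* was highest at 1 h (2.99), *Ccr2* was lower at both times, and none of the other CC chemokines was called at 1 h.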

How the data were processed

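RNA of BMDMs of 4 mice in 3 groups was sequenced in 12 libraries. The methods describe stranded mRNA libraries, run together in 1 lane as single reads of 50 bases. The authors deposited 1 raw count per gene and library, made with TopHat2 2.0.11 on GRCm38 and HTSeq 0.8.0, as the submitters' processing notes name them, without normalization. The strand option and annotation release of the counting are not given in the sources used here. Columns were matched to samples by name, and 0 columns were left unused. GENCODE M21 gave names to 53274 of 53379 genes.

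From the counts, genes were filtered with filterByExpr, scaled by TMM and tested with edgeR 4.0.16 in R 4.3.3, in 1 quasi-likelihood fit of group means to all 12 libraries. Normalized counts use these TMM factors. The study's methods name limma on vsn-scaled counts. Here limma 3.58.1 was an alternative, as were DESeq2 1.42.0, RLE and library-size scaling, no filter, a mean count of at least 50, 2 groups alone, a prior count of 2, an adjusted p under 0.01, the mouse as replicate block and the removal of each library in turn. The sample titles give each mouse a number that its 3 libraries share. Deviations of such libraries from their group means had r of 0.290 to 0.561 over 12386 genes (12 pairs), against -0.304 to 0.0912 between mice (36 pairs). Between replicates the chi-square per degree of freedom was 9.13 to 18.7. P-values of the main fit measure the spread between libraries of a group, each from another mouse, and do not use the pairing by mouse. Those with the mouse as a block and those of the sign-flip tests use it.

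Genes named are the 7 members, called genes of the 4 lists of related genes (at most 8 per list and comparison, by adjusted p), the 3 genes most like each member and listed genes given for their role. The members and lists were chosen with earlier results of these data known, and *Ccl8*, *Ccl11*, *Ccl17*, *Ccl19*, *Ccl20* and *Ccl22* were named after their values were seen. Results for 1 receptor of the lists and 1 of the 3 genes most like *Ccl6* are not reported here. Sequences are from RefSeq (GRCm38.p6) and GENCODE M21 and were aligned with Biopython. Intervals and tests at low counts rest on counts of reads without molecular identifiers.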

Additional observations from a re-analysis of the deposited data

Results flagged for a closer look

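The effect of fenoterol differed between 4 h and 1 h for 5 of the 7 CC chemokines, by edgeR's quasi-likelihood test of the difference itself with Benjamini-Hochberg adjustment. In the same comparison 38.5% of all genes were called. With the mouse as a block all 7 members were called, beside 5775 of 12386 genes. The log2 effect at 4 h minus that at 1 h was 0.81 for *Ccl3* (adjusted p = 0.00388) and 0.66 for *Ccl4* (adjusted p = 0.0118). It was 0.80 for *Ccl6* (adjusted p = 6.55e-05), 0.90 for *Ccl9* (adjusted p = 6.50e-08) and -1.48 for *Ccl12* (adjusted p = 0.0413). For *Ccl3* and *Ccl4* a positive value is a recovery towards the untreated level, and for *Ccl6* and *Ccl9* it is a further rise.

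One library stood apart in the level of a receptor gene. After 4 h of fenoterol, *Ccr3* had a normalized count of 68.9 in replicate 2 and 43.8 to 47.2 in the other 3, a gap that took 0.864 of the range of the group. Of 108 groups of 4 values looked at, this was the only one past the critical value of Dixon's test, where chance alone gives about 1 in 20 groups, here 5.4. No group of values of the 7 CC chemokines was past it.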

How the results depend on the processing

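Of 476 values of the 7 genes under the alternatives, 440 kept their direction and side of the threshold, 15 lost their call, 15 gained one and 6 changed sign, all 6 for *Ccl7* at 1 h. That value, 0.03, became -0.040 with library-size scaling, -0.049 with limma-voom and -0.025 with limma on log2 CPM values, and ranged from -0.29 to 0.18 as each library was left out. *Ccl3*, *Ccl4*, *Ccl6* and *Ccl9* at 4 h kept their call in all 23 alternatives each, and *Ccl3* and *Ccl4* did at 1 h. With an adjusted p under 0.01, 2 members instead of 3 were called at 1 h, 5 instead of 6 at 4 h and 3 instead of 5 between the times, while calls over all genes fell to 1580, 3613 and 3296 of 12386.

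Paired by mouse, with the replicate block, 4 members were called at 1 h, 7 at 4 h and 7 between the times, against 3, 6 and 5 without it. Calls over all genes rose too, to 3348, 5870 and 5775 of 12386 from 2493, 4958 and 4773. The calls gained are *Ccl6* at 1 h, *Ccl7* at 4 h, and *Ccl2* and *Ccl7* between the times, and no call of a member was lost. With each mouse left out, *Ccl3* minus *Ccl4* between the times ranged from -0.12 to 0.29, *Ccl2* minus *Ccl7* from -0.099 to 0.22 at 4 h and from -0.34 to 0.0048 between the times, and *Ccl6* minus *Ccl9* at 1 h from -0.042 to 0.00022. The causes were not tested.

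Scaling by library size alone moved the median log2 fold change of all genes to -0.073 at 1 h and to 0.100 between the times. Of 2918 genes it called at 1 h 1969 were lower, against 1251 of 2493 with TMM, and of 5333 between the times 1830 were lower, against 2453 of 4773. Levels divided by the longest coding transcript were chosen after seeing the data. Counts limit *Ccl12* and *Ccl7* most, at 1 to 29 and 17 to 85 reads a library.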
